A study of Rattus norvegicus with 9 samples.

Results

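The 40 genes described here drive or carry out the cell cycle. They comprise the G1 cyclins and their kinases, the inhibitors and the E2F factor that gate entry into S phase, the MCM helicase and its sliding clamp, enzymes that make DNA precursors, and the kinases, checkpoint proteins and motors of mitosis. They were listed by symbol. Each was read from the probe set that is annotated to that gene alone and has the highest mean level. Of the 40 genes, 38 had such a probe set. Rrm2 had none, because its probe sets are shared with Rrm2l1, and none was annotated to Tpx2. A filter that left out the dimmest 30% of probe sets by mean over all arrays kept 34 of the 38. Cdk6, Ccna2, Bub1 and Bub1b fell below it. The 34 genes stand among 11287 tested genes.

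RNA came from the adrenal medulla, the catecholamine-secreting core of the adrenal gland, of adult rats of 280 to 320 g, and was hybridized to 9 Affymetrix arrays. Control rats (3 arrays) were not stressed, 1XIMO rats (3 arrays) were immobilized once for 2 h, and 6XIMO rats (3 arrays) were immobilized for 2 h on each of 6 days. The tissue was dissected after the last session, and no genotype, strain or sex is named for any group. The organism is given as Rattus norvegicus although some label fields name mouse and brain. Nothing in the labels ties an array to an animal of its own, so p-values cover only the spread among these 9 samples, part of which may be technical.

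In the cell cycle, D-type cyclins with Cdk4 and Cdk6, and then E-type cyclins with Cdk2, inactivate the retinoblastoma proteins and release E2F factors, which switch on genes for DNA synthesis. The six-protein MCM ring is loaded on origins in G1 and unwinds DNA in S phase, with PCNA as the clamp that holds the polymerases. Cyclin A and B with Cdk1 then drive mitosis, and Mki67 is present in cycling but not in resting cells. Most chromaffin cells of the adult medulla are out of cycle, although rat chromaffin cells keep some capacity to divide, and blood vessel, immune, glial and cortical cells can contribute transcripts as well. In bulk tissue, fewer cells of a type and less RNA per cell cannot be told apart.

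Levels are given as log2(intensity + 16) on the deposited scale, and differences as differences of these values with the standard error (SE) of the fit. They understate changes of dim genes. Levels of different probe sets are not compared. Differences were tested with limma across all tested genes, two-sided, and a gene is said to have risen or fallen where its Benjamini-Hochberg adjusted p was under 0.05.

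Promoters of the genes called below are shown, whether or not they hold E2F or other cell cycle elements, which the choice of genes did not use. Ccnd2 is not among them. Promoter sequences of 30 of the 40 genes were in the RefSeq set used here (GRCr8), each covering the 250 bases before the transcription start. They were searched on both strands for E2F letters (TTTCGCGC, TTTGGCGC or GCGGGAA), for the letters TTTGAA of the cell cycle homology region bound by DREAM and MuvB complexes, and for CCAAT, bound by NF-Y. In the lines below, capitals mark every match of these letters. The sequences run 5′ to 3′ on the strand of the gene.
Mcm2 (chr4:122918095-122918344, minus strand): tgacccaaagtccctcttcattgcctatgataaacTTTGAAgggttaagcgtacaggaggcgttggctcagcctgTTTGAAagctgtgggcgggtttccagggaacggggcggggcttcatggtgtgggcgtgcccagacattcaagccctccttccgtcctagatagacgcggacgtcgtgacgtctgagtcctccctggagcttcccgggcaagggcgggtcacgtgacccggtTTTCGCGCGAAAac
Mcm6 (chr13:42404353-42404602, minus strand): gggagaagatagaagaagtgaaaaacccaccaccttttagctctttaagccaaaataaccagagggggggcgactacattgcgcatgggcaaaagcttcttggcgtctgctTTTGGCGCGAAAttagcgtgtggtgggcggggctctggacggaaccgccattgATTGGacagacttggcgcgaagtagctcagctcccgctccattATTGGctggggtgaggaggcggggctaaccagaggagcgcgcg
Cdk2 (chr7:1721879-1722128, minus strand): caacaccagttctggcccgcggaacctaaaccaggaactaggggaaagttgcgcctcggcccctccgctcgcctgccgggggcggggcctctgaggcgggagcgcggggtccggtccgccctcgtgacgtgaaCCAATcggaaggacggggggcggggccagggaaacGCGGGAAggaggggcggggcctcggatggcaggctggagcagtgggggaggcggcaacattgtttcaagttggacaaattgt
Rrm1 (chr1:166235654-166235903, plus strand): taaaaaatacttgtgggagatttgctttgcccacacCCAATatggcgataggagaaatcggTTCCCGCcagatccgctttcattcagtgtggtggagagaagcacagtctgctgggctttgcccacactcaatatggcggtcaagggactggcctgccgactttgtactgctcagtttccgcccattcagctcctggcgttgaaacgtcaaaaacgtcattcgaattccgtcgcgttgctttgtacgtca
Mki67 (chr1:199952594-199952843, minus strand): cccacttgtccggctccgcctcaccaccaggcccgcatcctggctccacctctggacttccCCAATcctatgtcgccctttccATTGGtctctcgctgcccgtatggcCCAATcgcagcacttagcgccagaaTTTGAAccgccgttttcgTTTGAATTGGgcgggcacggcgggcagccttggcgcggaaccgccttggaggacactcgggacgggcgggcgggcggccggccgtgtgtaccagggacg
Ccne1 (chr1:99927910-99928159, minus strand): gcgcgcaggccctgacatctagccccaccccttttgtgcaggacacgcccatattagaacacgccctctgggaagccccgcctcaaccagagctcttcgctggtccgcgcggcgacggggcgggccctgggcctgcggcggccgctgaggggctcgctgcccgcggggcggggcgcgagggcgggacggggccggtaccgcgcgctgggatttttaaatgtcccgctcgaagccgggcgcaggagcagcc

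Mcm2 and Mcm6, which fell after 1 session, each held E2F letters that read on both strands from overlapping bases (2 matches each), and Mcm2 held 2 matches of TTTGAA as well. Cdk2 and Rrm1 each held 1 E2F match and 1 CCAAT. Mki67 held no E2F match in this window, but 2 of TTTGAA and 4 of CCAAT, of which 1 of each overlap. Ccne1, which rose after 1 session, held no match of any of the 3 kinds. Over the 30 genes, E2F letters were present in 8 (26.7%) against 3.9% of 33469 promoters of the same length. Members were counted by gene, with a match in any of its promoters, and the background by promoter. CCAAT was present in 22 (73.3%) against 34%, and TTTGAA in 9 (30%) against 16.2%. A match is a description of the letters, and occupancy of these promoters was not measured.

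The arrays did not stand on an equal footing. The actin 3′/5′ signal ratio, which rises when labelled RNA is incomplete, was 1.45 to 2.15 in control, 1.57 to 1.99 in 1XIMO and 231, 6.11 and 8.87 in 6XIMO arrays, with log2 means 3.68 higher in 6XIMO than in control (exact permutation test, two-sided, p = 0.1, the smallest that 3 against 3 arrays allow). 6XIMO replicate 1 also correlated with the other arrays at only 0.604 to 0.73, against 0.854 to 0.983 among the other 8. Spike-in controls averaged 12.04 to 13.08 (log2) in control, 11.96 to 13.46 in 1XIMO and 17.52, 14.04 and 14.41 in 6XIMO arrays. Median intensity was 910.5 to 1053, 826.3 to 974.7, and 1583, 592.6 and 674.6. The 6XIMO arrays other than replicate 1 thus also lay outside the range of the other groups. RNA quality, array scale and 6 sessions cannot be told apart. Counts and the calls that differ are therefore given with and without 6XIMO replicate 1, whose removal also lowers the spread that all comparisons share. Markers of chromaffin cells were bright in every group, and Th averaged 15.92 ± 0.31 (SD, n = 3) in control. Markers of other cells moved with 6XIMO. The summed intensity of 10 adrenal cortex markers was 344326 to 496357 in control, 324060 to 762718 in 1XIMO and 1078448 to 2010848 in 6XIMO arrays, and 7 of the 10 rose and 1 fell in 6XIMO. Over 11 chromaffin markers it was 376587 to 566978, 360905 to 691633 and 1203486 to 2442141, with 5 rising in 6XIMO. The ranges for 10 leukocyte markers were 83246 to 100457, 78851 to 100387 and 70255 to 108625, and 2 of the 8 tested fell in 6XIMO. For 8 endothelial markers they were 54123 to 62516, 48841 to 54494 and 46503 to 52651, and 2 fell. For 6 Schwann cell markers they were 22432 to 32932, 27751 to 32592 and 33161 to 42164, and 1 fell. For 3 erythrocyte markers they were 21428 to 34704, 18531 to 37445 and 7716 to 29506, and none passed. No marker was at 0. The part of these shifts in the results below was not tested.

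After a single 2 h immobilization, few cell cycle genes passed the test. Mcm2 and Mcm6, both subunits of the replicative helicase, fell 2.60-fold and 1.95-fold. Ccne1, the cyclin E that activates Cdk2 at the start of S phase, rose 2.45-fold. The other 31 tested genes did not pass. Over all tested genes, 4.2% rose and 5.31% fell in this comparison, so 1 riser and 2 fallers among 34 genes (2.941% and 5.882%) are close to the background. The median difference of the members was -0.28 against -0.13 for all genes. Below 0 lay 28 of 34, but a median of -0.13 means that most tested genes lay there too. Above the median of all genes lay 13 of the 34. Groups of 3 arrays did not overlap for 3 genes that were higher and 9 that were lower in 1XIMO, against a background of 13.4% and 29.5% of all genes.

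**Figure D1:**
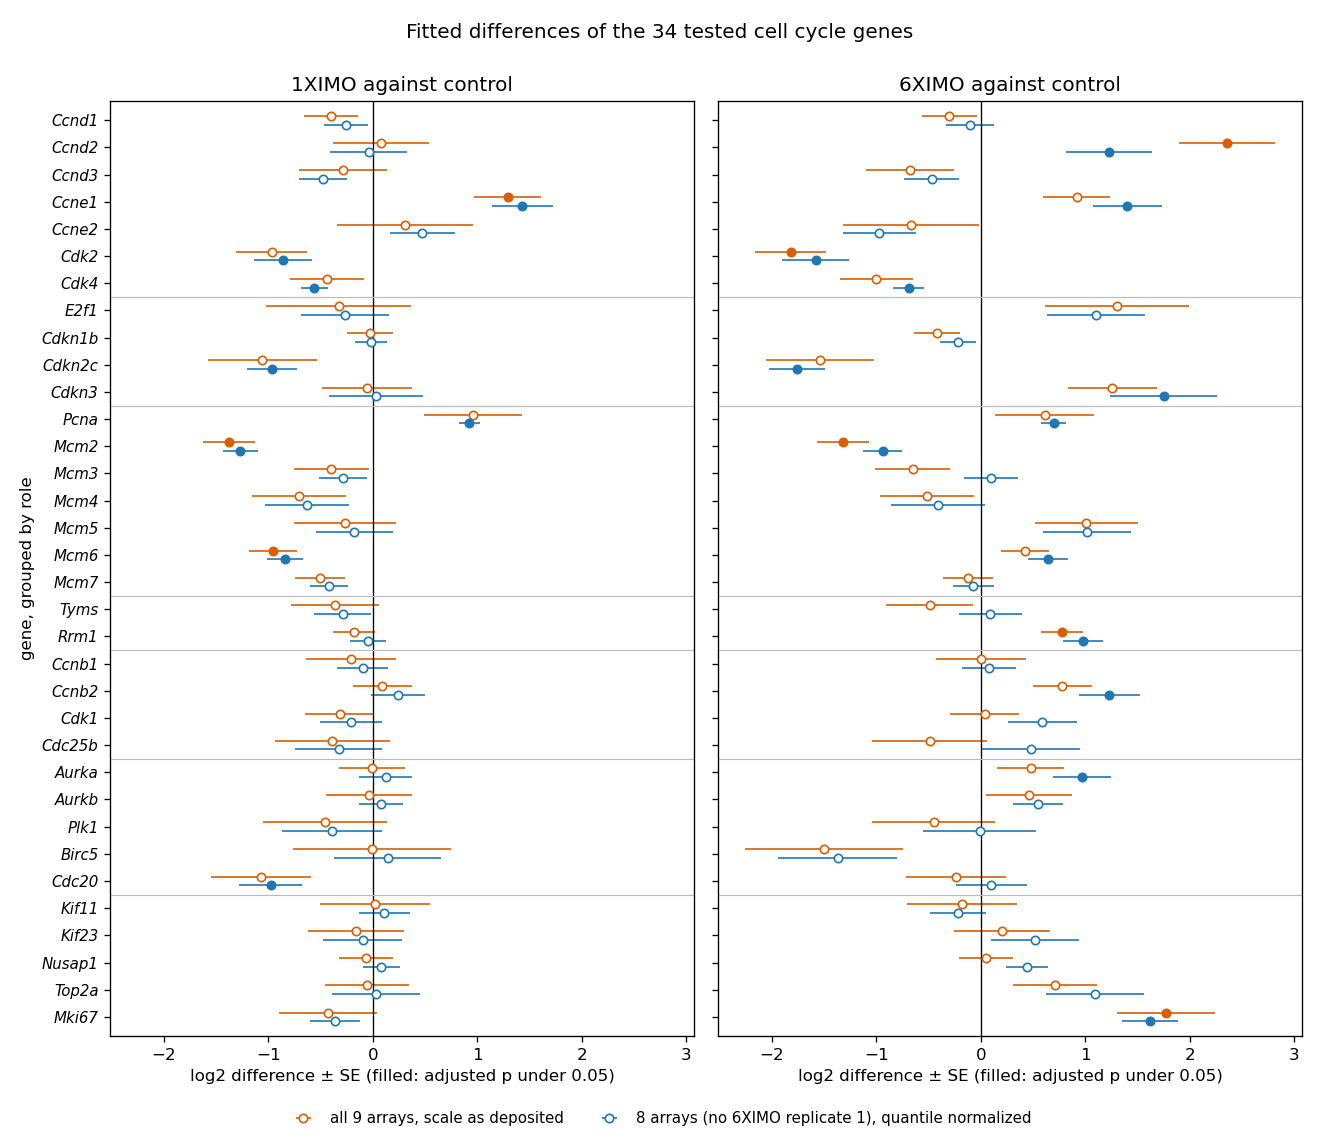
Fitted log2 differences from control (horizontal axis, with SE bars) of the 34 tested genes, grouped by role from G1 cyclins (top) to chromosome proteins (bottom), for 1XIMO (left) and 6XIMO (right). Orange shows all 9 arrays on the deposited scale and blue 8 arrays without 6XIMO replicate 1 after quantile normalization, and filled symbols passed at adjusted p under 0.05. Mcm2 lies left of 0 in both panels, Ccnd2 and Mki67 lie right of 0 after 6XIMO, and the 5 spindle and chromosome genes lie between -0.43 and 0.02 after 1XIMO with all arrays.

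Mcm2 stood at 11.12, 11.25 and 11.12 in the 3 control arrays, at 9.96, 9.84 and 9.56 in 1XIMO and at 10.16, 9.77 and 9.62 in 6XIMO. All 6 arrays of stressed rats lay below all 3 controls, and the stressed groups overlapped. The difference from control was -1.38 ± 0.25 after 1XIMO (adjusted p = 0.00969) and -1.32 ± 0.25 after 6XIMO (adjusted p = 0.00615), and between the stressed groups it was 0.06 ± 0.25 (adjusted p = 0.896). The 1XIMO call was lost with control replicate 2 or 3 or 1XIMO replicate 3 left out and with quantile normalization or median centring of all 9 arrays, with adjusted p up to 0.0751. The 6XIMO call was lost only with median centring of all 9 arrays among the alternatives run (adjusted p = 0.0543).

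Mcm6 followed another course. Its levels were 10.80, 11.03 and 10.81 in control, 9.90, 10.08 and 9.79 in 1XIMO and 11.60, 11.12 and 11.17 in 6XIMO. All 1XIMO arrays lay below, and all 6XIMO arrays above, the control range. The fall after 1XIMO was -0.96 ± 0.23 (adjusted p = 0.0273), while 6XIMO differed from control by 0.42 ± 0.23 (adjusted p = 0.207). 6XIMO stood 2.58-fold above 1XIMO, at 1.37 ± 0.23 (adjusted p = 0.0117). The 1XIMO call was lost with any 1 control or 1XIMO array left out (adjusted p up to 0.275 over all alternatives).

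The other helicase subunits gave no call against control. Mcm3 was at 10.04, 9.90 and 9.52 in control, 9.77, 9.24 and 9.26 in 1XIMO and 8.80, 9.51 and 9.19 in 6XIMO. It differed from control by -0.40 ± 0.36 after 1XIMO and -0.65 ± 0.36 after 6XIMO (adjusted p = 0.641 and 0.209). All 6XIMO arrays lay below all controls, though the nearest stood at 9.51 and 9.52. Mcm4 and Mcm7 did not overlap with control after 1XIMO, at -0.71 ± 0.45 and -0.51 ± 0.24 (adjusted p = 0.437 and 0.238). Mcm5 was at -0.27 ± 0.49 after 1XIMO and 1.01 ± 0.49 after 6XIMO (adjusted p = 0.881 and 0.159), with 6XIMO replicate 1 at 11.61 and the other 6XIMO arrays at 10.0 and 10.04. All 6 subunits had a negative difference after 1XIMO, from -1.38 to -0.27, and 2 of them fell. The median over all tested genes was negative as well, at -0.13.

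Pcna, the clamp, lay on the other side of control from the helicase genes after 1XIMO. Its levels were 13.95, 13.95 and 14.09 in control and 14.99, 14.99 and 14.90 in 1XIMO, and 13.24, 15.27 and 15.33 in 6XIMO replicates 1, 2 and 3. The 1XIMO arrays all lay above control with little spread, while 6XIMO replicate 1 lay below control and the other 6XIMO arrays lay above every 1XIMO array. With all 9 arrays the difference after 1XIMO was 0.96 ± 0.47 and did not pass (adjusted p = 0.276), and after 6XIMO it was 0.61 ± 0.47 (adjusted p = 0.379). Without 6XIMO replicate 1 the values were 0.96 ± 0.11 (1.95-fold, adjusted p = 0.000153) and 1.30 ± 0.12 (2.46-fold, adjusted p = 4.02e-05).

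**Figure D2:**
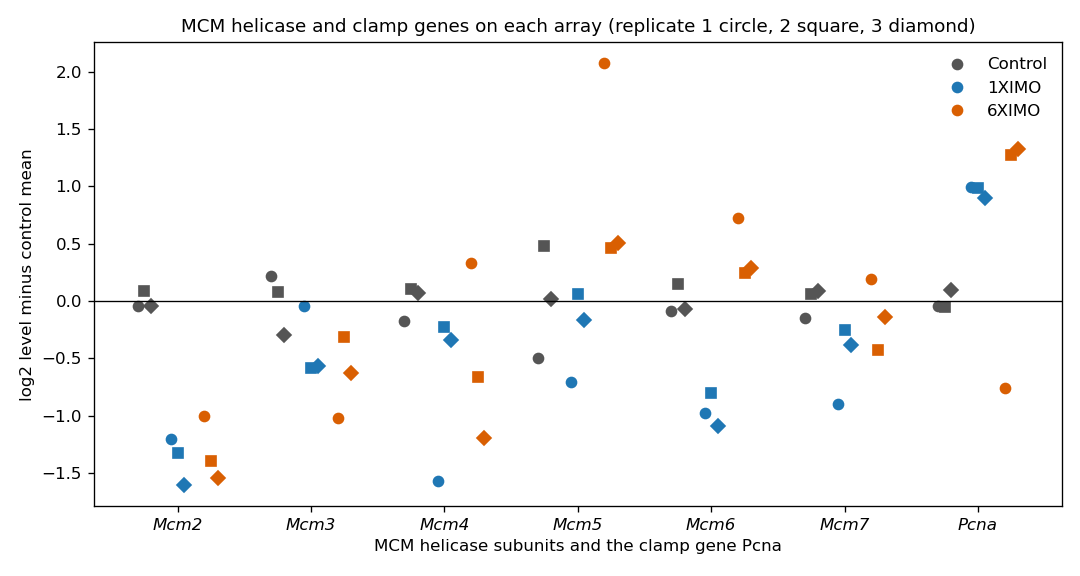
Log2 level minus the control mean (vertical axis) of the 6 MCM helicase subunits and Pcna on each array, with circles, squares and diamonds for replicates 1, 2 and 3. Mcm2 is low on all 6 arrays of stressed rats, Mcm6 is low on the 1XIMO arrays alone, and Pcna is raised on all stressed arrays except 6XIMO replicate 1.

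Ccne1 was at 9.47, 9.41 and 9.28 in control, 10.29, 11.35 and 10.40 in 1XIMO and 10.28, 10.14 and 10.50 in 6XIMO. All stressed arrays lay above all controls. The difference was 1.29 ± 0.32 after 1XIMO (adjusted p = 0.0345) and 0.92 ± 0.32 after 6XIMO (adjusted p = 0.0665). With the replicate number as a block, which treats same-numbered arrays as matched, the 1XIMO call was lost (adjusted p = 0.0582). It was also lost without the dim filter and without any 1 control array, 1XIMO replicate 2 or 3 or 6XIMO replicate 3 (up to 0.163 over all alternatives). Quantile normalization or median centring of all 9 arrays ended the call too. Ccne2, the second cyclin E, was at 0.31 ± 0.65 after 1XIMO and -0.67 ± 0.65 after 6XIMO (adjusted p = 0.908 and 0.491), and a second Ccne2 probe set gave -0.07 and 1.15.

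Cdk2, the kinase partner of cyclin E and A, was at 10.99, 11.05 and 11.32 in control, 10.01, 10.21 and 10.22 in 1XIMO and 9.87, 9.45 and 8.59 in 6XIMO. The groups did not overlap, with control highest and 6XIMO lowest. The difference was -0.97 ± 0.34 after 1XIMO (adjusted p = 0.114) and -1.82 ± 0.34 after 6XIMO, a 3.53-fold fall (adjusted p = 0.00528). The 6XIMO call was kept in all 21 alternatives, with differences from -2.42 to -1.46. A second Cdk2 probe set gave -0.97 and -1.41. Without 6XIMO replicate 1 the 1XIMO fall passed too (-0.97 ± 0.24, adjusted p = 0.0127).

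Removing 6XIMO replicate 1 raised the count after 1XIMO to 2 risers (Ccne1 and Pcna) and 6 fallers. The fallers were Mcm2, Mcm6, Cdk2, Cdk4, the INK4 inhibitor Cdkn2c and the anaphase activator Cdc20. The background rose as well, to 9.77% higher and 20.2% lower. Under the same setting the fallers had differences from -1.38 (Mcm2) to -0.44 (Cdk4), and Cdkn2c was at -1.06 ± 0.22 (adjusted p = 0.00527) and Cdc20 at -1.07 ± 0.34 (adjusted p = 0.0389). Quantile normalization of the same 8 arrays called the same 2 and 6 genes, against 11.2% and 18.9%. Median centring of them called 2 higher and 3 lower (Mcm2, Mcm6 and Cdkn2c), against 10% and 9.65%. With quantile normalization of all 9 arrays no member passed after 1XIMO, while 4.09% of all genes rose and 3.06% fell, and none passed with median centring of all 9. At an unadjusted p under 0.05 limma gave 2 higher and 4 lower members with the first and 1 and 5 with the second. The share of all genes at that threshold was not counted, so these counts have no background beside them.

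After 6 daily sessions, the growth-phase cyclin Ccnd2, the ribonucleotide reductase subunit Rrm1 and the proliferation marker Mki67 rose, by 5.13-fold, 1.72-fold and 3.41-fold. Cdk2 and Mcm2 fell, by 3.53-fold and 2.5-fold. The other 29 genes did not pass, among them nearly all tested genes of mitosis. Over all tested genes 9.36% rose and 14.9% fell, so 3 risers (8.824%) are near the background and 2 fallers (5.882%) lie under it. The members' median was -0.06 against -0.23 for all genes, and 16 lay above 0 and 19 above the median of all genes. Groups did not overlap for 9 genes that were higher and 5 that were lower in 6XIMO, against 14.9% and 26.6% of all genes.

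**Figure D3:**
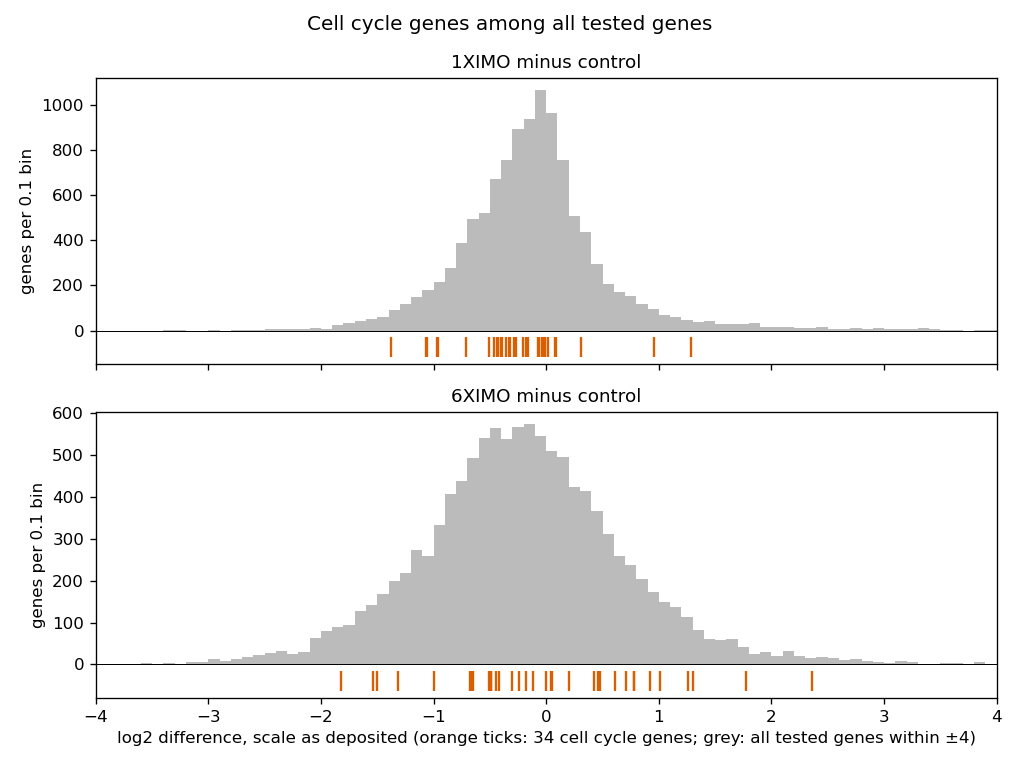
Number of tested genes (vertical axis) per bin of log2 difference (horizontal axis) after 1XIMO (top) and 6XIMO (bottom), with the 34 cell cycle genes as orange ticks. The ticks span -1.38 to 1.29 after 1XIMO and -1.82 to 2.36 after 6XIMO, inside the spread of all genes.

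Ccnd2, a D-type cyclin, was at 13.25, 14.50 and 13.99 in control, 13.30, 14.31 and 14.37 in 1XIMO and 17.13, 15.71 and 15.98 in 6XIMO. Control and 1XIMO overlapped fully, and all 6XIMO arrays lay above both. The difference was 2.36 ± 0.46 from control (adjusted p = 0.00646) and 2.28 ± 0.46 from 1XIMO (adjusted p = 0.0188), and 0.08 ± 0.46 between 1XIMO and control (adjusted p = 0.985). The rise against control passed in all 21 alternatives, but its size was 1.93 ± 0.37 without 6XIMO replicate 1 and 1.23 when the remaining 8 arrays were quantile normalized (adjusted p = 0.0442). Ccnd1, the D-type cyclin most often tied to growth factor signals, was at 10.91, 11.58 and 11.23 in control, 10.66, 10.87 and 10.98 in 1XIMO and 11.33, 10.86 and 10.61 in 6XIMO. It did not pass, at -0.40 ± 0.26 and -0.30 ± 0.26 (adjusted p = 0.456 and 0.433), and its 3 probe sets disagreed in direction after 6XIMO. Ccnd3 was at -0.29 ± 0.42 and -0.68 ± 0.42 (adjusted p = 0.83 and 0.275).

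Cdk4, the kinase of the D-type cyclins, was lower in every 6XIMO array than in control, at 11.68, 13.08 and 13.09 against 13.44, 13.74 and 13.69. Its difference of -1.0 ± 0.35 did not pass (adjusted p = 0.0652), and was -0.54 ± 0.16 without 6XIMO replicate 1 (adjusted p = 0.0205). Cdk6, its relative, was too dim for the test. On the unfiltered fit it gave 0.66 ± 1.02 after 6XIMO (adjusted p = 0.7).

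Among regulators of the G1/S step none of 4 passed with all arrays. Cdkn3, a phosphatase that acts on Cdk2, was at 8.33, 9.68 and 9.43 in control, 8.63, 9.56 and 9.08 in 1XIMO and 10.41, 10.26 and 10.58 in 6XIMO. All 6XIMO arrays lay above the other 6, at 1.26 ± 0.43 from control (adjusted p = 0.0588), and the rise passed without 6XIMO replicate 1 (1.27 ± 0.43, adjusted p = 0.0329). Cdkn2c, an inhibitor of Cdk4 and Cdk6, was at 11.44, 12.18 and 12.22 in control, 10.68, 11.08 and 10.89 in 1XIMO and 11.81, 9.78 and 9.63 in 6XIMO. 6XIMO replicate 1 lay within the control range and the other 5 stressed arrays below it. The difference after 6XIMO was -1.54 ± 0.52 (adjusted p = 0.0554) with, and -2.24 ± 0.25 (4.72-fold, adjusted p = 0.000102) without that array. A second, dimmer Cdkn2c probe set gave -0.33 after 1XIMO and 1.15 after 6XIMO, the opposite sign in the latter. E2f1, the activating E2F factor, was at 8.77, 8.85 and 8.94 in control, 9.34, 7.49 and 8.72 in 1XIMO and 11.67, 9.40 and 9.38 in 6XIMO. Its difference of 1.30 ± 0.69 after 6XIMO (adjusted p = 0.196) was 0.54 ± 0.49 without it. Cdkn1b, the inhibitor p27, was at -0.03 ± 0.22 and -0.42 ± 0.22 (adjusted p = 0.989 and 0.182).

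Rrm1, the large subunit of the enzyme that makes deoxyribonucleotides, was at 11.61, 11.15 and 11.16 in control, 11.03, 11.27 and 11.06 in 1XIMO and 12.13, 12.12 and 12.01 in 6XIMO. The 6XIMO arrays agreed closely and lay above all others. The difference was 0.78 ± 0.20 from control (adjusted p = 0.0182) and 0.97 ± 0.20 from 1XIMO (adjusted p = 0.0188), and 0.76 ± 0.18 from control without 6XIMO replicate 1 (adjusted p = 0.00657). The call against control was lost with control replicate 2 or 3 left out (adjusted p up to 0.18 over all alternatives). Tyms, thymidylate synthase, was at -0.36 ± 0.42 after 1XIMO and -0.49 ± 0.42 after 6XIMO (adjusted p = 0.753 and 0.428), so the nucleotide enzymes gave 1 riser of 2 tested.

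Mki67 was at 9.46, 9.39 and 9.15 in control, 8.82, 9.06 and 8.82 in 1XIMO and 12.29, 10.66 and 10.36 in 6XIMO. All 1XIMO arrays lay just below the controls and all 6XIMO arrays above them. The difference was -0.43 ± 0.47 after 1XIMO (adjusted p = 0.731), 1.77 ± 0.47 after 6XIMO (adjusted p = 0.0236) and 2.20 ± 0.47 between the stressed groups (adjusted p = 0.0224). Replicate 1 was the highest 6XIMO array, and without it the rise was 1.18 ± 0.27, or 2.27-fold (adjusted p = 0.00503). Leaving out any 1 control array, or fitting only the 2 groups compared, ended the call against control (adjusted p up to 0.0831 over all alternatives).

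Other genes that mark dividing cells did not pass. Top2a, the topoisomerase that untangles chromosomes, was at 8.95, 9.60 and 9.56 in control, 8.62, 9.48 and 9.83 in 1XIMO and 10.40, 9.95 and 9.88 in 6XIMO. All 6XIMO arrays lay above control and 1XIMO, but by 0.71 ± 0.40 (adjusted p = 0.228). A second Top2a probe set gave -0.03 after 1XIMO and 0.50 after 6XIMO, and its 6XIMO and control arrays overlapped. Cdk1, the mitotic kinase, was at 9.29, 9.95 and 9.71 in control, 9.29, 9.51 and 9.16 in 1XIMO and 9.68, 9.95 and 9.44 in 6XIMO. Its groups overlapped, at 0.04 ± 0.33 from control after 6XIMO (adjusted p = 0.941). Ccnb1, a cyclin B, was at 10.13, 9.83 and 9.59 in control, 9.77, 9.73 and 9.43 in 1XIMO and 10.79, 9.63 and 9.12 in 6XIMO. It showed no shift (-0.00 ± 0.43, adjusted p = 0.996).

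**Figure D4:**
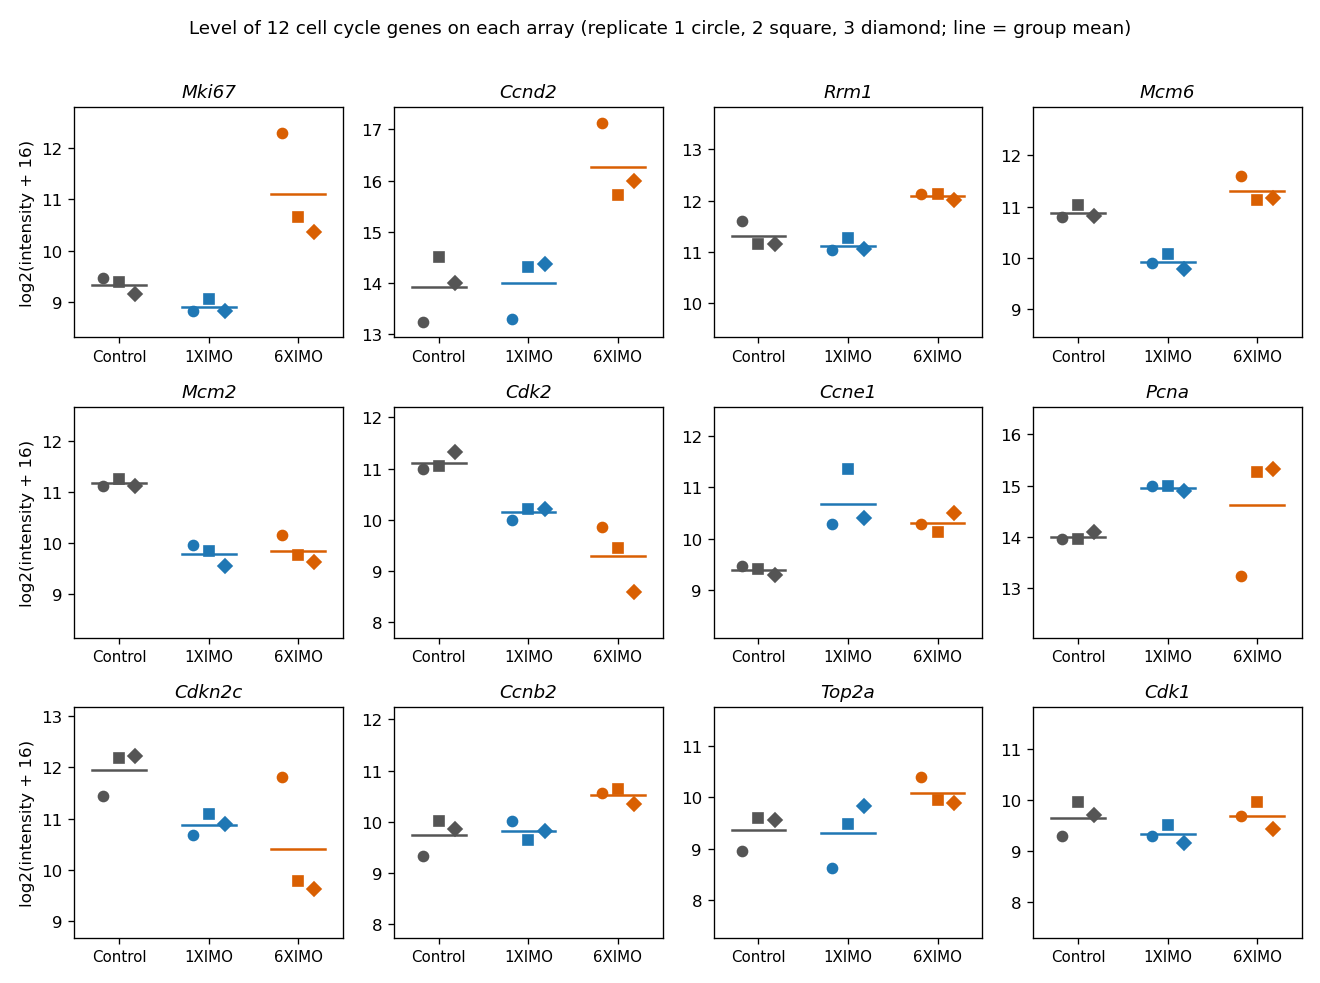
Level as log2(intensity + 16) (vertical axis) of 12 cell cycle genes on each of the 9 arrays by group (horizontal axis), with circles, squares and diamonds for replicates 1, 2 and 3 and a line at the group mean. Mki67, Ccnd2 and Rrm1 are higher on all 6XIMO arrays than on the other 6, Cdk2 steps down from control to 1XIMO to 6XIMO, and Cdk1 overlaps in all groups.

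Ccnb2, the second cyclin B, was at 9.34, 10.01 and 9.86 in control, 10.02, 9.64 and 9.81 in 1XIMO and 10.57, 10.63 and 10.34 in 6XIMO. All 6XIMO arrays lay above the other 6, at 0.78 ± 0.28 from control (adjusted p = 0.0742), which passed without 6XIMO replicate 1 (0.75 ± 0.27, adjusted p = 0.0414). Ccna2, the cyclin A of S and G2 phase, was below the dim filter. It was at 6.55, 7.97 and 7.64 in control, 7.29, 7.13 and 7.86 in 1XIMO and 10.48, 8.61 and 8.95 in 6XIMO, so that the 6XIMO arrays lay above the rest. The unfiltered fit gave 1.96 ± 0.65 (adjusted p = 0.0639). Cdc25b, the phosphatase that activates Cdk1, was at -0.39 ± 0.55 and -0.49 ± 0.55 after 1XIMO and 6XIMO (adjusted p = 0.816 and 0.556).

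None of the 5 tested mitotic kinase and checkpoint genes passed in any comparison with all arrays. Aurka and Aurkb, the Aurora kinases, were at 0.48 ± 0.32 and 0.46 ± 0.41 after 6XIMO (adjusted p = 0.298 and 0.449). Plk1, a kinase of mitotic entry and exit, was at -0.45 ± 0.59 (adjusted p = 0.614). Birc5, survivin, was at 9.98, 9.93 and 9.95 in control and 10.37, 9.77 and 9.69 in 1XIMO, and at 9.73, 6.32 and 9.29 in 6XIMO. 6XIMO replicate 2 was far below the other arrays, and the difference of -1.5 ± 0.76 did not pass (adjusted p = 0.178). Cdc20 was at -1.07 ± 0.48 after 1XIMO and -0.24 ± 0.48 after 6XIMO (adjusted p = 0.224 and 0.749). Bub1 and Bub1b, spindle checkpoint kinases, were below the dim filter, and the unfiltered fit gave 1.22 ± 0.61 and -0.58 ± 0.67 after 6XIMO (adjusted p = 0.192 and 0.593).

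Of the spindle genes, the motors Kif11 and Kif23 and the microtubule binder Nusap1 were at -0.18 ± 0.53, 0.20 ± 0.46 and 0.05 ± 0.26 after 6XIMO (adjusted p = 0.83, 0.784 and 0.911). After 1XIMO their differences were 0.02, -0.16 and -0.07. None of the 3 passed in either comparison with all arrays, and Mki67 was the only 1 of the 5 tested spindle and chromosome genes that did. Kif11 was at 10.40 on 6XIMO replicate 1 and at 8.47 and 8.49 on the others, and it fell without that array (-0.82 ± 0.30, adjusted p = 0.0436).

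Without 6XIMO replicate 1, the 6XIMO comparison called 7 genes higher (Ccnd2, Ccne1, Cdkn3, Pcna, Rrm1, Ccnb2 and Mki67) and 7 lower (Ccne2, Cdk2, Cdk4, Cdkn2c, Mcm2, Birc5 and Kif11), against backgrounds of 17.9% and 30.3%. The 3 risers and 2 fallers called with 9 arrays were among them. Quantile normalization of these 8 arrays called 9 higher, adding Mcm6 and Aurka to those 7, and 4 lower (Cdk2, Cdk4, Cdkn2c and Mcm2), against 16.7% and 18.2%. Median centring of them called 11 higher and 4 lower, and moved the background to 35% higher and 8.81% lower. Quantile normalization of all 9 arrays called the same 3 genes higher, and Cdk2, Cdk4 and Mcm2 lower, against 9.2% and 8.46%. By array, 19 of 34 genes lay above the control range on 6XIMO replicate 1, 13 on replicate 2 and 12 on replicate 3, and 10, 14 and 17 lay below it. Shares of all tested genes were not counted per array, so these counts have no background beside them.

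The direct comparison of the stressed groups asks whether 6 sessions left another state than 1. Ccnd2, Mcm6, Rrm1 and Mki67 were higher in 6XIMO than in 1XIMO, by 4.86-fold, 2.58-fold, 1.96-fold and 4.59-fold, and no member was lower by limma. At an unadjusted p under 0.05, 8 members were higher and 1 lower, with no share of all genes counted at that threshold. In all tested genes 5.21% were higher and 4.63% lower, beside 4 higher members (11.765%). The members were chosen with earlier results of these data known, so this share is not read as an excess of the set. Median centring of all 9 arrays called 1 member higher, with 40 higher genes in all. A fit of only the 2 groups called 0 members higher, with 0 higher genes in all. The members' median was 0.16 against -0.08 for all genes. Groups did not overlap for 9 members that were higher and 1, Cdk2, that was lower, against 16.1% and 17.7% of all genes. Leaving out 1XIMO replicate 2 or 3 ended all 4 calls, and it left 5 higher and 3 lower genes over the whole array for replicate 2 and 0 in either direction for replicate 3. At an unadjusted p under 0.05 these 2 fits of limma each gave 6 members higher and 0 lower, again with no background counted. Without 6XIMO replicate 1 there were 5 higher (with Cdkn3 added) and 4 lower members (Ccne2, Cdk2, Cdkn2c and Birc5), against 15.3% and 17.0%. Median centring of these 8 arrays gave 10 higher and 2 lower members, against 33.8% and 5.23%. Quantile normalization of them gave 6 higher and 1 lower, against 12.4% and 9.71%, and of all 9 arrays 3 higher (Mcm6, Rrm1 and Mki67) and 0 lower, against 3.29% and 2.13%.

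The wider machinery around these genes was read from 6 lists of 147 genes, of which 117 were tested. With all 9 arrays 11 rose and 8 fell after 1XIMO (9.4% and 6.8%, against 4.2% and 5.31% of all genes), and 8 rose and 17 fell after 6XIMO (6.8% and 14.5%, against 9.36% and 14.9%). The list medians of the differences were -0.27 and -0.28, against -0.13 and -0.23 over all genes. The 8 arrays without 6XIMO replicate 1 gave 17 risers and 29 fallers after 1XIMO (14.5% and 24.8%, against 9.77% and 20.2%), and 15 and 36 after 6XIMO (12.8% and 30.8%, against 17.9% and 30.3%). Quantile normalization of those 8 arrays gave 20 and 22 after 1XIMO, against 11.2% and 18.9% of all genes. After 6XIMO it turned the balance, with 20 rising and 17 falling (17.1% and 14.5%, against 16.7% and 18.2%).

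Of 23 replication fork genes, 4 fell, none rose and 19 did not pass after 1XIMO with all arrays, against 5.31% falling over all genes. They were Fen1, the flap nuclease (-1.73 ± 0.36, adjusted p = 0.0166), Rfc1 and Rfc5 of the clamp loader (-1.58 ± 0.30 and -1.43 ± 0.32, adjusted p = 0.0107 and 0.0212) and the primase Prim1 (-0.68 ± 0.19, adjusted p = 0.049). The Prim1 call was lost with the replicate block (adjusted p = 0.0751). Quantile normalization of all 9 arrays left 1 faller, Rfc5 (adjusted p = 0.0106), with Fen1, Rfc1 and Prim1 at 0.0629, 0.116 and 0.137. With the 8 arrays there were 1 riser and 13 fallers of the 23, against 9.77% and 20.2%. After 6XIMO 1 rose, Top1 (1.29 ± 0.20, adjusted p = 0.00244), and 6 fell with all arrays, against 9.36% and 14.9% of all genes. It was 1 and 10 without 6XIMO replicate 1, against 17.9% and 30.3%. Quantile normalization of those 8 arrays gave 2 and 4, against 16.7% and 18.2%. Of 12 origin licensing genes 1 fell after 1XIMO, Orc3 of the origin recognition complex (-1.18 ± 0.32, adjusted p = 0.0488), and the replicate block ended that call (adjusted p = 0.0584). After 6XIMO 2 of the 12 fell, against 14.9% of all genes. The 8 arrays without 6XIMO replicate 1 gave 4 fallers in each comparison, against 20.2% after 1XIMO and 30.3% after 6XIMO.

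Of 16 CDK inhibitors and antiproliferative genes, 5 rose and 2 fell after 1XIMO, against 4.2% and 5.31% of all genes, and 4 rose and 2 fell after 6XIMO, against 9.36% and 14.9%. On the 8 arrays it was 6 and 3 after 1XIMO, against 9.77% and 20.2%, and 7 and 2 after 6XIMO, against 17.9% and 30.3%. Quantile normalization of those 8 arrays gave 6 and 2 in both, against 11.2% and 18.9% after 1XIMO and 16.7% and 18.2% after 6XIMO. Cdkn1c, the inhibitor p57, rose by 2.63 ± 0.30 after 6XIMO (adjusted p = 0.000558), and by 2.4 without 6XIMO replicate 1. Gadd45g, a growth arrest gene, rose by 2.67 ± 0.42 and 2.82 ± 0.42 after 1XIMO and 6XIMO (adjusted p = 0.00393 and 0.00189). Ccng2, an atypical cyclin that slows the cycle, fell (-1.81 ± 0.20 and -1.69 ± 0.20, adjusted p = 0.000567 and 0.000592). These genes passed without 6XIMO replicate 1 as well.

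Of 18 pocket protein and transcription factor genes, 2 rose and 0 fell after 1XIMO, against 4.2% and 5.31% of all genes. After 6XIMO 1 rose and 2 fell, against 9.36% and 14.9%. Without 6XIMO replicate 1 it was 3 and 8 after 6XIMO, against 17.9% and 30.3%, and 4 and 4 after 1XIMO, against 9.77% and 20.2%. Quantile normalization of those 8 arrays gave 5 and 4 after 6XIMO, against 16.7% and 18.2%. After 1XIMO it gave 5 and 4, against 11.2% and 18.9%. The same shares of all genes are the background for the other lists of this paragraph. Mybl1, a MYB family factor, rose by 2.66 ± 0.26 after 1XIMO (adjusted p = 0.000282) and 1.5 ± 0.26 after 6XIMO (adjusted p = 0.00349). Rb1, the retinoblastoma protein, rose after 1XIMO (1.01 ± 0.28, adjusted p = 0.0494), a call that the replicate block ended (adjusted p = 0.0617). The repressor E2f6 fell after 6XIMO (-1.38 ± 0.22, adjusted p = 0.0028). Of 32 other mitosis genes 2 rose and 1 fell after 1XIMO, and 1 rose and 5 fell after 6XIMO, which became 2 and 11 without 6XIMO replicate 1 and 6 and 4 after quantile normalization of those 8 arrays. After 1XIMO these counts were 2 and 5, and 3 and 4. The kinesin Kif20a was the riser after 6XIMO (2.13 ± 0.31, adjusted p = 0.00188), and the condensin subunit Ncapd2 was among the fallers (-2.05 ± 0.42, adjusted p = 0.00819). Of 16 relatives of cyclins and kinases that act outside the cycle 2 rose after 1XIMO and 1 after 6XIMO, and without 6XIMO replicate 1 it was 4 rising, and 2 rising and 1 falling.

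Second probe sets gave a partial check. Of the members, 11 had 2 or more probe sets, and 8 other probe sets of 7 genes were above the dim filter. They agreed in sign with the chosen probe set in 6 of 8 after 1XIMO and in 4 of 8 after 6XIMO. Among the genes called with all arrays, Cdk2 alone had a second probe set above the filter, and its differences are given above. The calls of Ccnd2, Mki67, Rrm1, Mcm2, Mcm6 and Ccne1 each rest on 1 probe set.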

How the data were processed

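RNA of 9 adrenal medulla samples was measured on Affymetrix rat arrays, which the manufacturer labelled and ran, per the labels. The deposited table holds 1 linear intensity per probe set and array. Its 31099 probe sets include 57 controls, 20826 annotated to 1 gene symbol, 436 to several and 9780 to none. Trimmed means of 2500.6 to 2501 on all arrays show that the deposited intensities had been scaled per array. How probes were summarised, how background was treated and what each array was scaled to is not stated: not given in the sources used here. No detection calls were used.

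Values were taken as log2(intensity + 16). Probe sets with several or no symbols and the dimmest 30% (mean log2 level under 8.51) were dropped, and each gene was represented by its brightest probe set on average, which left 11287 of 14217 genes. The 3 group comparisons used limma 3.58.1 (R 4.3.3), with lmFit and a trended eBayes over all 9 arrays, with 6 residual degrees of freedom and Benjamini-Hochberg adjustment over all tested genes. The fit was run on simulated data whose spread came from the control and 1XIMO arrays alone. That run does not cover the spread of the 6XIMO arrays. Deviations of same-numbered control and 1XIMO arrays correlated at 0.25 to 0.508, and those of differently numbered ones at -0.422 to 0.275. These ranges overlap and the labels give only the numbers, so whether the numbers pair samples is not settled.

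The members and lists were chosen with earlier results of these data known, and no test was made over a list. All members are named. Those past the threshold, and 10 taken by name (Mki67, Top2a, Cdk1, Ccnb1, Ccna2, Ccnd1, Ccnd2, Pcna, Mcm2 and Mcm3), are given with every array. Values of Ccnb2, Cdkn2c, Cdkn3, Birc5, E2f1, Cdk4, Mcm5 and Kif11 by array were chosen for print after they were seen. The genes named from each other list were picked from the up to 4 with the smallest adjusted p in a comparison. Not all of those that passed are named, and Plk2, Sesn1, Btg1, Mcm10 and Orc5 are among the ones left out. Alternatives were other filters, pseudocounts, normalizations, array weights, a replicate block, fits of 2 groups, means over probe sets and leaving out each array. Median centring without 6XIMO replicate 1 was added after seeing the data. For arrays, their number limits the precision.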

Additional observations from a re-analysis of the deposited data

Results flagged for a closer look

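With all arrays on the deposited scale, the responses to 6 sessions and to 1 session differed for 4 cell cycle genes. The test of that difference was the limma contrast of 6XIMO against 1XIMO. Ccnd2 was higher in 6XIMO by 2.28 on the log2 scale, Mki67 by 2.20, Mcm6 by 1.37 and Rrm1 by 0.97, and for each of the 4 all 3 6XIMO arrays lay above all 3 1XIMO arrays. Mcm6 was below the control range on all 1XIMO arrays and above it on all 6XIMO arrays, and so was Mki67. For Ccnd2 and Rrm1 the 1XIMO arrays overlapped the controls. The 4 calls depended on the fit. All were lost when only the 2 groups were fitted and with 1XIMO replicate 2 or 3 left out. Of 21 alternatives, Ccnd2 lost its call in 7, Rrm1 in 5, and Mcm6 and Mki67 in 4 each. For Ccnd2 these included quantile normalization with and without 6XIMO replicate 1 (limma, adjusted p = 0.0675 and 0.055). The RNA quality controls and the scale of the arrays moved with 6XIMO, and their part in these differences was not tested.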

How the results depend on the processing

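Of 2097 gene values under alternatives, 1817 kept sign and side of the threshold, 90 passed in addition and 52 no longer passed. In all 138 values, of 47 of the 102 gene results, changed sign, most often with median centring without 6XIMO replicate 1 (26) and array weights (18). Of these 135 passed neither as deposited nor under the alternative, and none had passed as deposited. The other 3 passed under the alternative. They were Pcna, 6XIMO against 1XIMO, at -0.35 as deposited but 0.82 with median centring without 6XIMO replicate 1 and 0.34 with array weights, and Mcm4 in the same comparison, 0.20 as deposited and -0.70 with array weights. Counts of members (higher, lower) were 1 and 2 after 1XIMO, 3 and 2 after 6XIMO and 4 and 0 between the stressed groups. Pseudocounts of 1 and 64, a 50% filter and means over probe sets gave the same counts. No filter gave 0 and 2, 3 and 2, and 4 and 0 in the same order. Quantile normalization gave 0 and 0, 3 and 3, and 3 and 0. Median centring gave 0 and 0, 2 and 1, and 1 and 0. Quantile normalization without 6XIMO replicate 1 gave 2 and 6, 9 and 4, and 6 and 1. Median centring without it gave 2 and 3, 11 and 4, and 10 and 2. It moved the median of all genes after 6XIMO from -0.23 to 0.384. Array weights gave 2 and 7, 7 and 8, and 9 and 6. Fits of only the 2 groups gave 2 and 5, 1 and 2, and 0 and 0. Leaving out 1 array gave 0 to 2 higher and 0 to 6 lower after 1XIMO, 1 to 7 and 2 to 7 after 6XIMO, and 0 to 5 and 0 to 4 between stressed groups. The replicate block gave 0 and 2 after 1XIMO. Same-numbered control and 6XIMO arrays correlated at 0.06 to 0.158, and 1XIMO and 6XIMO arrays at 0.078 to 0.15. The numbers were not taken as pairs there, and the block gave 4 and 3, and 4 and 0. The causes were not tested.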
